A study of Mus musculus with 12 samples.

Results

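Pknox1, Pknox2, Meis1, Meis2, Meis3, Pbx2, Pbx3, Pbx4 and Tgif1 encode homeodomain transcription factors of the TALE superclass, and their transcript levels were measured in fetal mouse testes that lacked Nr2f2 in part of their cells. The 9 genes were taken by symbol, as members of the PKNOX, MEIS, PBX and TGIF classes, from a table of 24470 genes, and all 9 passed the filter on low counts that left 15572 genes for testing. Whole testes were collected at E14.5 and sequenced in bulk, and each of the 12 libraries was made from a pool of 3 testes. The 6 control pools came from Nr2f2 f/f embryos. The 6 cKO pools came from embryos that carried the same floxed alleles and in addition WT1creER. This is a Cre recombinase under the control of Wt1 that becomes active after tamoxifen. According to the study, the pregnant females carried embryos of both groups and were injected with tamoxifen before collection. Both groups thus shared the floxed alleles and the exposure to tamoxifen. The recombination was limited to cells of the Wt1 lineage and to those in which the induction worked. Nothing in the sample descriptions said whether pools came from separate litters, so the p-values measured the spread between pools.

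TALE proteins are set apart from other homeodomain proteins by a short extension of the loop between the first helices of the homeodomain. PBX proteins bind DNA together with HOX proteins and with the MEIS and PKNOX (PREP) proteins, which hold PBX in the nucleus, whereas TGIF proteins recruit corepressors to the SMAD and retinoid pathways. In steroidogenic tissues, the PBX and PKNOX proteins have been described as regulators of the steroidogenic gene Cyp17a1.

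The homeoboxes of the genes whose change passed the test, of their closest paralogs and of Pbx3 are given first, since the comparisons below turn on differences between near relatives. They were read from GENCODE M21 transcripts (mm10) on the coding strand. Capitals mark, in order, the codons of the loop extension and the codons of the recognition helix by which the homeobox was located. Each homeobox was 189 bases long and was split over 3 exons in all printed genes.
Pknox2: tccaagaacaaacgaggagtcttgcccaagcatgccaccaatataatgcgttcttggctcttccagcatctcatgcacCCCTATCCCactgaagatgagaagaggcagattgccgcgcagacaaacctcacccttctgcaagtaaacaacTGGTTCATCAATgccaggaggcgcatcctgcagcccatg
Pknox1: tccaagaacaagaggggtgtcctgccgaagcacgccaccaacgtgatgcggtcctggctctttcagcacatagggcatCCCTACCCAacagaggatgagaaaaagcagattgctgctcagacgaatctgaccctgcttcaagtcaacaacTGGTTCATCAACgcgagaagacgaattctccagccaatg
Meis3: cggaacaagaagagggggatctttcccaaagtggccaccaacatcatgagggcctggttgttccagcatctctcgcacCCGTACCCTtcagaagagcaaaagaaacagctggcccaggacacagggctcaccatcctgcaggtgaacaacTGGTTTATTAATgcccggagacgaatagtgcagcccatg
Meis1: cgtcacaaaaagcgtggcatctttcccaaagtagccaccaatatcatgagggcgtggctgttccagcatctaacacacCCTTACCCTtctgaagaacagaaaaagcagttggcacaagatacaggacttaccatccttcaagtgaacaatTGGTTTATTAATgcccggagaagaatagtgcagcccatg
Pbx3: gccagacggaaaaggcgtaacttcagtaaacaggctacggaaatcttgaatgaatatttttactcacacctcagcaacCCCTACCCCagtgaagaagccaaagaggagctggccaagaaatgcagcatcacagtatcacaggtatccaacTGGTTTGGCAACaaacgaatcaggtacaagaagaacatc
The Pknox2 homeobox lay within chr9:36894462-36909703 on the minus strand, in exons 10 to 12, and that of Pknox1 within chr17:31599569-31603223 on the plus strand, in exons 8 to 10. The Meis3 homeobox lay within chr7:16182394-16184074 on the plus strand and that of Meis1 within chr11:18885615-18941733 on the minus strand, both in exons 8 to 10. The Pbx3 homeobox lay within chr2:34178295-34213256 on the minus strand, in exons 4 to 6. Pknox1 and Pknox2 were identical at 78.3% of these bases, Meis1 and Meis3 at 84.7%, and Pknox2 and Pbx3 at 51.9%. The longest identical run between any pair of the 9 homeoboxes was 21 bases.

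Total counts ranged from 7044531 to 39965574 in the control libraries and from 7322959 to 59404778 in the cKO libraries. Nr2f2, the targeted gene, was at 162.5 to 185.9 CPM (counts scaled to the size of the library) in the control and at 50.21 to 118.6 CPM in the cKO, and fell by 1.21 on the log2 scale (SE 0.16, edgeR quasi-likelihood test, adjusted p = 0.000548). The groups did not overlap for Nr2f2, although transcript remained in every cKO pool. Xist, the noncoding RNA of the inactive X, was at 891.4 CPM in control 1, 304.3 CPM in cKO 3, 506.8 CPM in cKO 5 and 432.7 CPM in cKO 6. The other 8 libraries were at 5.16 to 7.68 CPM, so these 4 libraries stood apart, and they were spread unequally over the groups. The changes of the 9 genes are therefore given also for the 8 libraries with Xist under 100 CPM (5 control and 3 cKO). In whole testes, fewer cells of a type and less RNA per cell cannot be told apart.

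Compared per kilobase of exon, the 9 genes spanned a wide range of levels in the control testes. Pbx2 was the most abundant at 33.9 ± 2.53 CPM per kb (mean ± SD, n = 6), followed by the corepressor gene Tgif1 at 12.8 ± 1.75. Pbx3, Pknox2 and Pknox1 formed a middle group at 8.58, 8.23 and 7.93 CPM per kb. Pbx3 exceeded Pknox2 in only 3 of 6 control libraries, so these neighbours in the order did not differ beyond their spread. Per kb, Pknox2 exceeded Pknox1, Pknox1 exceeded Meis1 and Meis1 exceeded Meis2 in 5 of 6 control libraries each, with 1 library against the order in each case. The order of Pknox1, Meis1 and Meis2 depends on the length used, which was that of all annotated exons joined. Without division by length their control means were 54.99, 67.25 and 68.88 CPM, the reverse order. Meis1 was at 6.38, Meis2 at 5.72 and Meis3 at 3.39 CPM per kb. Meis2 was above Meis3, and Meis3 above Pbx4, in 6 of 6 control libraries. Pbx4, a PBX gene known mainly from germ cells of the adult testis, was the least abundant at 0.401 CPM per kb, with counts of 4 to 69 per library.

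**Figure D1:**
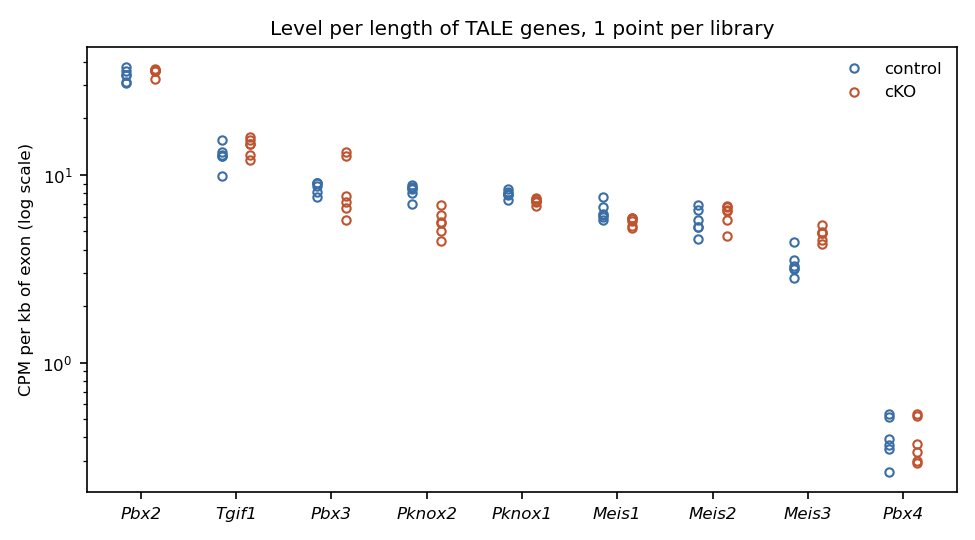
CPM per kilobase of exon (log scale) for the 9 genes, ordered by their control mean, with 1 point per library (blue, 6 control; red, 6 cKO). Pbx2 lies above and Pbx4 below all other genes in both groups. The genes from Pbx3 to Meis2 lie close together in the control, whereas in the cKO Pbx3 spreads from 5.76 to 13.2 CPM per kb.

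In the comparison of cKO with control, Pknox2 fell and Meis3 rose, and the other 7 genes did not pass the test. Among all genes tested, 8.13% passed the threshold of adjusted p under 0.05, 4.85% lower and 3.28% higher in the cKO, against 1 lower and 1 higher of the 9 TALE genes. The median log2 fold change was 0.043 over the 9 genes and 0.003 over all genes tested, and 4 of the 9 values were negative. The sign of the members' median was not stable: it was -0.019 in limma-voom, -0.136 with Xist as a covariate and -0.149 over the 8 low-Xist libraries, and -0.115 (without cKO 6) to 0.081 when 1 library was left out, negative also without cKO 5 (-0.025). The summed level of the 9 genes was 499.3 to 548.4 CPM in the control and 505.6 to 539.3 CPM in the cKO, so the sums overlapped while single members moved in opposite directions. Non-overlapping groups were found for Pknox2 alone among the 9 genes; 5.52% of all genes tested had groups that did not overlap, 3.13% with the cKO below and 2.39% with the cKO above.

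**Figure D2:**
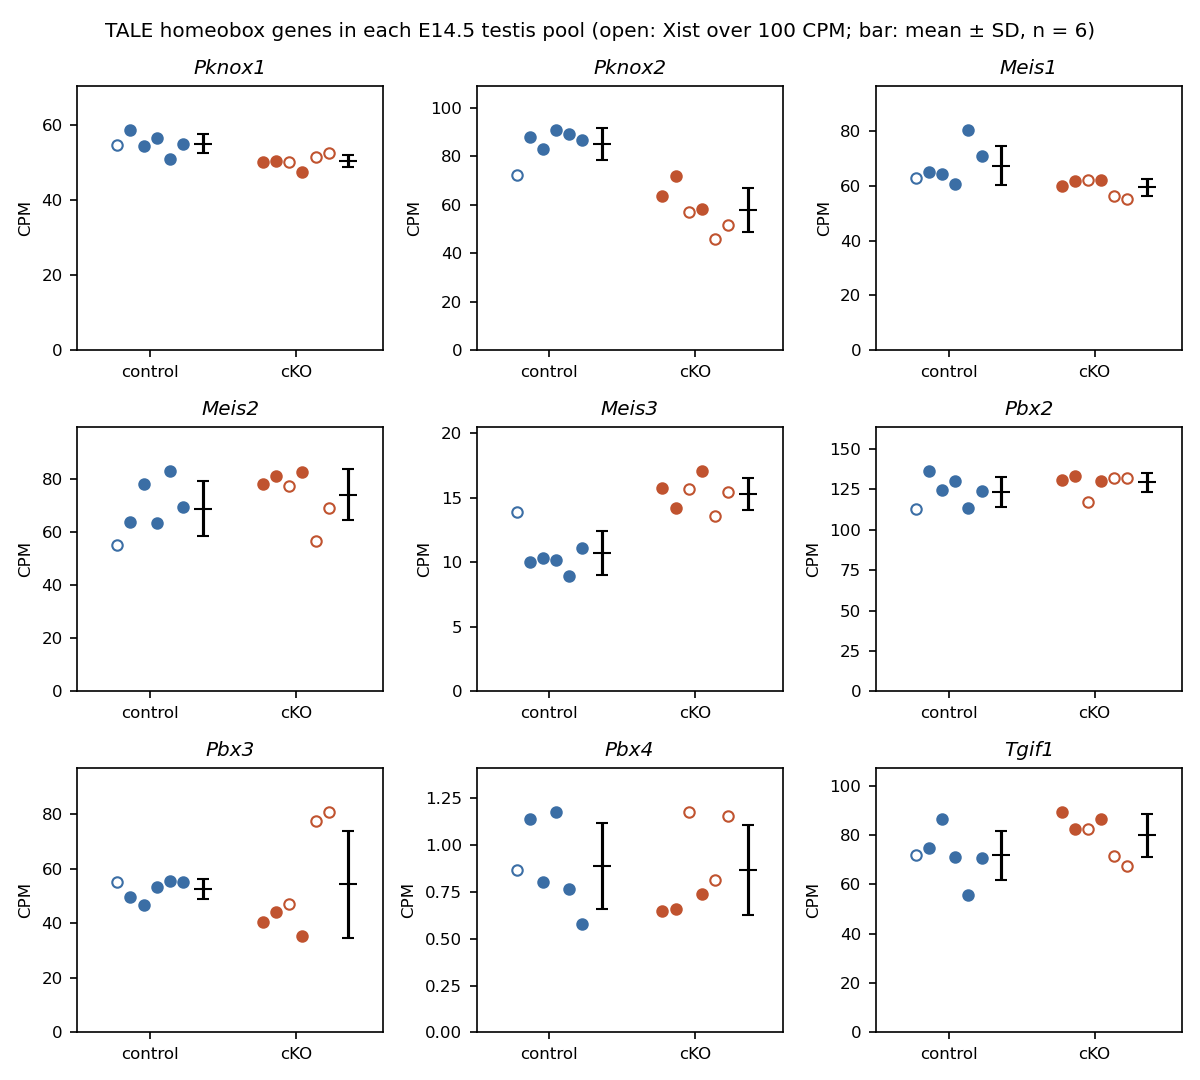
CPM of each of the 9 genes in every library, in 1 panel per gene with its own axis (blue, control; red, cKO; open points, Xist over 100 CPM; bars, mean ± SD, n = 6 per group). The Pknox2 points separate by group, 5 of 6 cKO points of Meis3 lie above all control points, and the cKO points of Pbx3 fall into a low and a high set.

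Pknox2 had the largest decrease of the 9 genes over the 12 libraries. Pknox2 (Entrez 208076, chr9:36890979-37147322, minus strand) encodes PREP2, a partner of PBX with a restricted range of tissues. Its level was 72.5, 88.0, 82.9, 90.8, 89.3 and 86.8 CPM in control 1 to 6 and 63.6, 71.9, 57.2, 58.1, 45.7 and 51.7 CPM in cKO 1 to 6. Every cKO library was below every control library, although control 1 and cKO 2 were nearly equal. The means were 85.0 ± 6.72 CPM in the control and 58.0 ± 9.10 CPM in the cKO, a ratio of 0.684, and Pknox2 fell by 0.55 on the log2 scale (SE 0.10, edgeR, adjusted p = 0.00325). The lowest control library was control 1, and the cKO libraries with high Xist (45.7 to 57.2 CPM) lay below those with low Xist (58.1 to 71.9 CPM). Without the 4 libraries with high Xist the difference was -0.44 (SE 0.08, edgeR, adjusted p = 0.0111).

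Pknox1 (Entrez 18771, chr17:31564773-31607693, plus strand) encodes PREP1, the broadly expressed paralog, which is needed for early embryonic development. The lowest, median and highest control libraries were at 51.0, 54.7 and 58.6 CPM, and those of the cKO at 47.6, 50.3 and 52.5 CPM. In 4 of 6 cKO libraries Pknox1 was below every control library, but the groups overlapped. The difference of -0.13 (SE 0.05) did not pass the test (edgeR, adjusted p = 0.159). PKNOX transcripts made up 18.5% ± 0.548 of the per-kilobase sum of the 9 genes in the control and 14.6% ± 0.866 in the cKO, with ranges of 17.8% to 19.1% and 13.4% to 15.8% that did not overlap. Per kb, Pknox2 was at 8.23 CPM in the control and 5.61 CPM in the cKO.

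Among the MEIS genes, the member with the lowest level was the one that changed. Meis3 (Entrez 17537, chr7:16175395-16186510, plus strand) encodes a MEIS protein best known from hindbrain patterning. The lowest, median and highest control libraries were at 8.95, 10.25 and 13.9 CPM, and those of the cKO at 13.6, 15.6 and 17.1 CPM. In 5 of 6 cKO libraries Meis3 was above every control library; the exception was cKO 5, which lay just below control 1. The means were 10.8 ± 1.71 CPM in the control and 15.3 ± 1.24 CPM in the cKO, and Meis3 rose 1.42-fold (log2 fold change 0.51, SE 0.11, edgeR, adjusted p = 0.00858). Control 1, one of the libraries with high Xist, had the highest control level by a wide margin. Over the low-Xist libraries the log2 fold change was 0.65 (SE 0.10, edgeR, adjusted p = 0.00397), and the groups no longer overlapped.

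Meis1 (Entrez 17268, chr11:18880428-19018969, minus strand), which encodes a HOX cofactor of blood and limb development, was at 60.6 to 80.2 CPM in the control with a median of 64.5 CPM. In the cKO it was at 55.2 to 62.1 CPM with a median of 60.6 CPM. The cKO libraries lay at the lower end of the control range, 3 of them below it, and the difference of -0.17 (SE 0.07) did not pass the test (edgeR, adjusted p = 0.156). Meis2 (Entrez 17536, chr2:115861264-116065058, minus strand), known for its part in neural crest and heart development, was at 55.1 to 83.0 CPM in the control and 56.9 to 82.6 CPM in the cKO. The ranges of Meis2 were nearly the same, and its log2 fold change was 0.11 (SE 0.11, edgeR, adjusted p = 0.536). As a class, MEIS transcripts held 17.8% ± 1.71 of the per-kilobase sum in the control and 18.8% ± 1.66 in the cKO.

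Of Pbx2, Pbx3 and Pbx4, none passed the test over the 12 libraries in edgeR, DESeq2 or limma-voom, or at an unadjusted p under 0.05 in edgeR. Pbx2 (Entrez 18515, chr17:34592471-34597341, plus strand), a broadly expressed PBX gene, was at 112.9 to 136.3 CPM in the control and 117.4 to 133.2 CPM in the cKO. The cKO libraries lay within the control range, and the log2 fold change was 0.06 (SE 0.06, edgeR, adjusted p = 0.531). Pbx4 (Entrez 80720, chr8:69832704-69872292, plus strand) was at 0.888 ± 0.230 CPM in the control and 0.866 ± 0.240 CPM in the cKO (log2 fold change -0.04, SE 0.22, edgeR, adjusted p = 0.938). No change in Pbx4 was detected. PBX transcripts held 49.1% ± 1.35 of the per-kilobase sum in the control and 50.6% ± 3.93 in the cKO.

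Pbx3 (Entrez 18516, chr2:34171457-34372045, minus strand), which encodes a PBX protein important in the hindbrain centres of breathing, had similar means but very different spreads. It was at 55.0, 49.5, 46.6, 53.1, 55.3 and 55.1 CPM in control 1 to 6. In cKO 1 to 6 it was at 40.6, 44.0, 47.2, 35.2, 77.5 and 80.8 CPM. The libraries cKO 5 and cKO 6 were above every control library, whereas cKO 1, cKO 2 and cKO 4 were below every control library. The log2 fold change over the 12 libraries was 0.04 (SE 0.18, edgeR, adjusted p = 0.904), which averaged these opposite values. Both high libraries were among those with high Xist, and the remaining libraries of that kind, control 1 and cKO 3, were at 55.0 and 47.2 CPM, within the control range. Among the 8 low-Xist libraries alone, Pbx3 fell by 0.37 on the log2 scale (SE 0.10, edgeR, adjusted p = 0.0402), while a fit over all 12 libraries with Xist as a covariate gave -0.17 (-0.165, adjusted p = 0.565). What part the source of the high Xist had in Pbx3 was not tested.

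**Figure D3:**
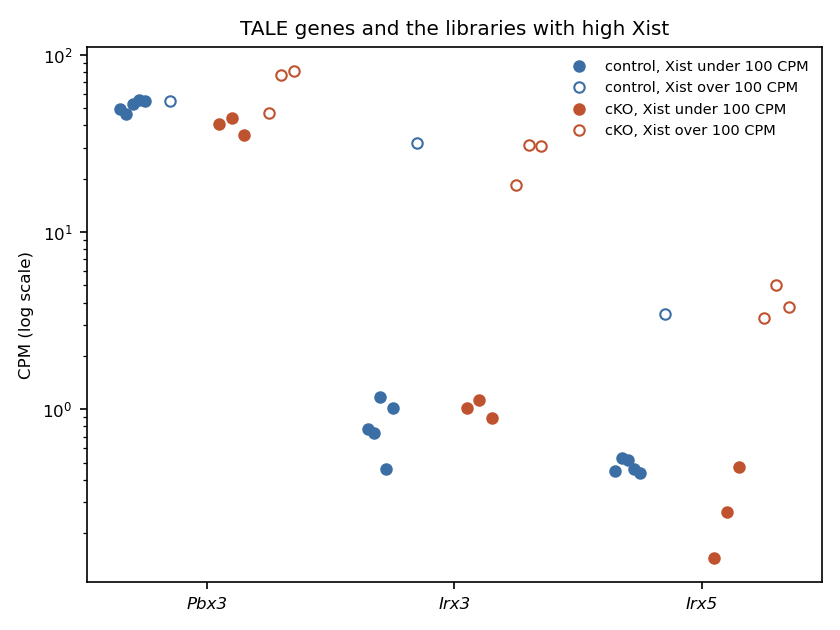
CPM (log scale) of Pbx3, Irx3 and Irx5 in every library (blue, control; red, cKO), with filled points for the 8 libraries with Xist under 100 CPM and open points for the 4 above it. Open points are the highest for Pbx3 only in cKO 5 and cKO 6, whereas for Irx3 all 4 are at 18.5 to 31.9 CPM and all filled points at 0.459 to 1.18 CPM.

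Tgif1 (Entrez 21815, chr17:70844205-70853532, minus strand), the corepressor of TGF-beta signalling whose loss is linked to forebrain malformation, was at 55.7 to 86.5 CPM in the control with a median of 71.5 CPM. In the cKO it was at 67.2 to 89.3 CPM with a median of 82.3 CPM. The ranges overlapped over most of their length, and the log2 fold change of 0.15 (SE 0.10) did not pass the test (edgeR, adjusted p = 0.346). For the genes not yet given over the 8 low-Xist libraries, the log2 fold changes there were -0.15 for Pknox1 and for Meis1, 0.17 for Meis2, 0.07 for Pbx2, -0.43 for Pbx4 and 0.26 for Tgif1 (edgeR, adjusted p = 0.192, 0.312, 0.262, 0.554, 0.281 and 0.167). The share of Tgif1 in the per-kilobase sum was 14.6% ± 1.76 in the control and 16.1% ± 1.84 in the cKO.

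**Figure D4:**
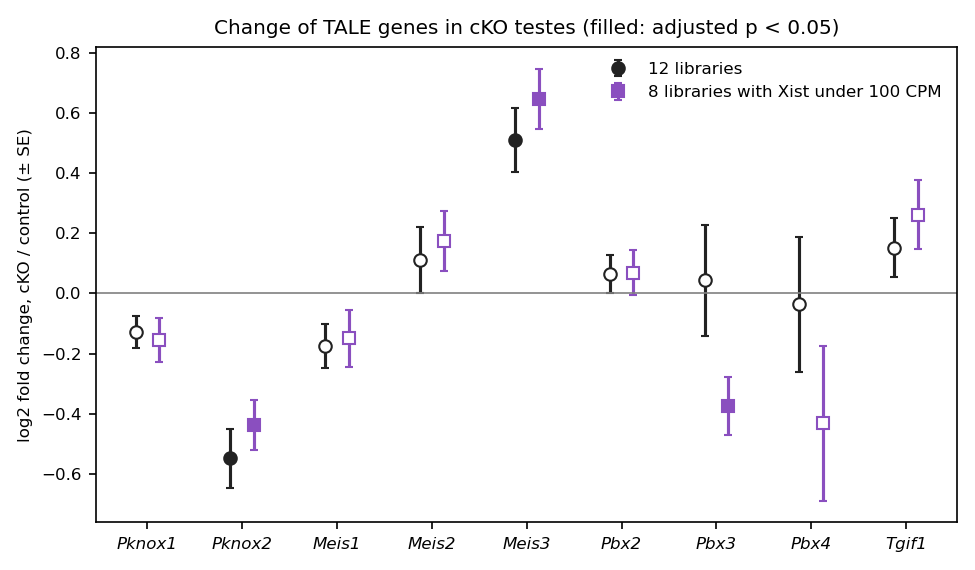
Log2 fold change of cKO over control ± SE for the 9 genes from edgeR, over all 12 libraries (black) and over the 8 libraries with Xist under 100 CPM (purple); filled symbols passed adjusted p under 0.05. Pknox2 and Meis3 are filled in both fits, whereas Pbx3 is at 0.04 in the first and at -0.37 in the second.

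Whether paralogs moved apart within the same testes was asked with the log2 ratio of their counts in each library, which does not depend on the scaling between libraries. The 7 pairs within the PKNOX, MEIS and PBX classes were compared by a two-sided exact permutation test of the group labels, with Benjamini-Hochberg adjustment over the 7 pairs. The log2 ratio of Pknox2 to Pknox1 was 0.63 ± 0.13 in the control and 0.19 ± 0.25 in the cKO, a difference of -0.44 (exact p = 0.00433, adjusted p = 0.0152). Pknox2 thus fell relative to its paralog as well as in level. In the control this ratio was 0.41 to 0.81 and in the cKO -0.17 to 0.51, so that a small overlap remained. Over the 8 low-Xist libraries the difference was -0.29 (exact p = 0.0179, adjusted p = 0.0312).

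The ratio of Meis1 to Meis3 differed most between the groups, by -0.69 on the log2 scale (2.65 ± 0.32 in the control, 1.96 ± 0.11 in the cKO, exact p = 0.00216, adjusted p = 0.0152). Its control range of 2.17 to 3.16 lay wholly above its cKO range of 1.84 to 2.11, and the difference over the 8 low-Xist libraries was -0.78 (exact p = 0.0179, adjusted p = 0.0312). Meis1 also fell relative to Meis2, by 0.28 (exact p = 0.013, adjusted p = 0.0303), although neither gene passed the test by itself; this call held without control 1, control 3, control 4 or cKO 5, and was lost in the exact test without any other library (adjusted p = 0.0505 to 0.0606). The ratio of Meis2 to Meis3 differed by -0.41, which did not hold after adjustment (exact p = 0.0411, adjusted p = 0.072) but did without control 1 (-0.55, exact test, adjusted p = 0.00758). Among the PBX genes the differences were 0.09 for Pbx2 to Pbx3, 0.12 for Pbx2 to Pbx4 and 0.02 for Pbx3 to Pbx4 (exact tests, adjusted p = 0.785, 0.785 and 0.907). Over the 8 libraries with Xist under 100 CPM, where the exact test allows no p below 0.0179, the ratio of Pbx2 to Pbx3 differed by 0.45 (exact p = 0.0179, adjusted p = 0.0312).

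**Figure D5:**
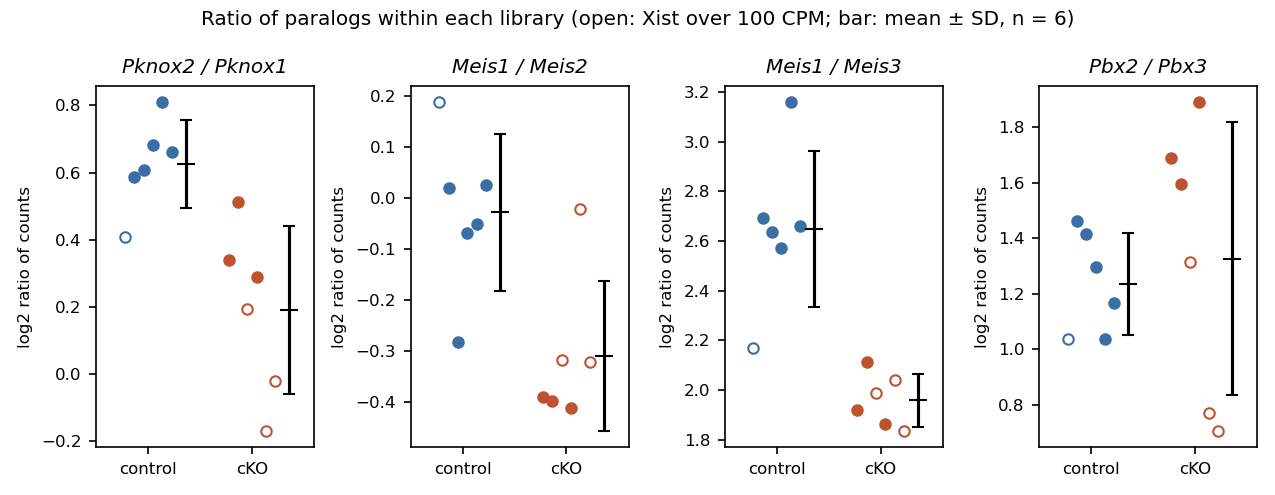
Log2 ratio of the counts of 4 pairs of paralogs in each library, on axes that do not start at 0 (blue, control; red, cKO; open points, Xist over 100 CPM; bars, mean ± SD, n = 6 per group). The Meis1 to Meis3 ratio of all 6 cKO libraries lies below that of all control libraries, and the Pbx2 to Pbx3 ratio is more widely spread in the cKO (0.71 to 1.89) than in the control (1.04 to 1.46).

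Markers of several cell types of the testis also differed between the groups, here counted in edgeR against 4.85% lower and 3.28% higher of all genes tested. Interstitial markers summed to 1196 to 1523 CPM in the control and 764.7 to 1337 CPM in the cKO, and 2 of 8 (Tcf21 and Wnt5a) passed the test as lower (3 by DESeq2). All 4 smooth muscle markers and 4 of 5 fetal Leydig cell markers were lower, with summed levels of 178.2 to 276.7 against 320.0 to 435.7 CPM and of 841.5 to 1745 against 1561 to 2910 CPM. Of the 6 Sertoli cell and 6 germ cell markers, 0 passed the test in edgeR, DESeq2 or limma-voom, and 0 had an unadjusted p under 0.05 in edgeR (median log2 fold changes of -0.05 and -0.02). Immune markers were higher in 2 of 5 cases (3 by DESeq2 and by limma-voom), with sums of 25.97 to 34.97 CPM in the control and 38.09 to 48.52 CPM in the cKO. Of the 4 genes listed as markers of mesonephric epithelium, 2 were higher, with sums of 6.351 to 12.57 CPM and 13.29 to 18.88 CPM. These were Lhx1 and Pax8, and the paper used Pax8 as a marker of supporting-like cells. Pax2 and Cdh16 did not pass the test (edgeR, adjusted p = 0.173 and 0.352), and Cdh16 had a library at 0. Endothelial markers were lower in 1 of 6 cases and 0 of 3 erythroid markers passed the test in edgeR, DESeq2 or limma-voom, with 1 at an unadjusted p under 0.05 in edgeR. The part of these shifts in the changes of Pknox2 and Meis3 was not tested.

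The interstitial marker Pdgfra, a growth factor receptor of the cells in which Nr2f2 is active, was at 555.4 ± 63.1 CPM in the control and 416.9 ± 87.6 CPM in the cKO (log2 fold change -0.41, SE 0.13, edgeR, adjusted p = 0.0649). The 9 TALE genes were therefore also compared per count of Pdgfra, a comparison chosen after the data had been seen. Per Pdgfra, Pknox2 differed by -0.13 on the log2 scale (two-sided exact permutation test, p = 0.0628), against -0.55 for its level. The values of the other 8 genes per Pdgfra were all positive, 0.26 for Meis1, 0.31 for Pknox1, 0.39 for Pbx4, 0.41 for Pbx3, 0.50 for Pbx2, 0.54 for Meis2, 0.59 for Tgif1 and 0.95 for Meis3. Of these, Pbx2, Meis2, Tgif1 and Meis3 had an exact p under 0.05 (exact p = 0.00216, 0.00433, 0.00433 and 0.00433), although among them only Meis3 passed the test in level. The difference of Pdgfra itself was -0.41, so division by it raised the values of all 9 genes by a like amount, and the sign or size of any single ratio includes that shift.

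A further 8 genes of the superclass were listed for context, of which 6 were tested. In edgeR, DESeq2 or limma-voom 0 of these passed the threshold, and 0 had an unadjusted p under 0.05 in edgeR. Tgif2 and the tendon gene Mkx had log2 fold changes of -0.01 and -0.13 (edgeR, adjusted p = 0.965 and 0.562). Tgif2 shares 3168 bases with 5430405H02Rik on the opposite strand, and the counting took strand into account.

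Of the Irx genes, which pattern organs along their axes, Irx3 and Irx5 were high in the libraries with high Xist of either genotype. Irx3 was at 31.9 CPM in control 1 and 18.5 to 30.9 CPM in cKO 3, cKO 5 and cKO 6, but at 0.459 to 1.18 CPM in the other controls and 0.889 to 1.12 CPM in the other cKO libraries. Irx5 was at 3.46 CPM in control 1 and 3.27 to 5.02 CPM in those 3 cKO libraries, against 0.434 to 0.528 CPM and 0.144 to 0.474 CPM. The log2 fold changes of Irx3 (1.06, SE 1.11, edgeR, adjusted p = 0.570) and Irx5 (0.93, SE 0.78, edgeR, adjusted p = 0.474) had wide errors. Without control 1, Irx3 passed the test (4.03, edgeR, adjusted p = 0.019). Irx2 and Irx6 were at 0.58 and 0.37 (edgeR, adjusted p = 0.287 and 0.529), and Irx1 and Irx4 were too low to be tested.

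Of the 39 Hox genes, whose products bind DNA with PBX and MEIS proteins, 29 were tested and 5 were lower in the cKO (edgeR; 8 by DESeq2, 4 by limma-voom), against 4.85% lower of all genes tested. None was higher by any of these tools or at an unadjusted p under 0.05 in edgeR, and the median log2 fold change was -0.10. The 3 with the smallest p-values were Hoxc10, Hoxd8 and Hoxd10, homeobox genes of the middle and posterior body. Hoxc10 was at 4.10 ± 0.699 CPM in the control and 2.25 ± 0.510 CPM in the cKO, with no overlap, and fell by 0.89 on the log2 scale (edgeR, adjusted p = 0.00683). Hoxd8 fell by 0.45 (66.2 ± 11.0 to 48.4 ± 3.89 CPM, edgeR, adjusted p = 0.0168) and Hoxd10 by 0.49 (31.2 ± 4.88 to 22.2 ± 3.53 CPM, edgeR, adjusted p = 0.0268). The other two that fell were Hoxc4 and Hoxc8, by 0.37 and 0.47 (edgeR, adjusted p = 0.0397 and 0.0420), named here because the count was small. The number of lower Hox genes was 1 to 8 over the alternatives, and 8 without control 1. Among the fits without 1 library, Hoxd10 kept its call without control 1 or without cKO 2, and had adjusted p-values of 0.0526 to 0.0628 in the 10 fits that left out another library (edgeR).

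Of 17 cofactors that bind TALE proteins or act with them, 1 was higher in the cKO (3.28% of all genes tested were) and 0 were lower in edgeR, DESeq2 or limma-voom or at an unadjusted p under 0.05 in edgeR. The median log2 fold change was 0.08. The higher gene was Ctbp2, which encodes a corepressor recruited by TGIF1, at 54.6 ± 4.09 CPM in the control and 64.9 ± 3.87 CPM in the cKO (log2 fold change 0.25, SE 0.07, edgeR, adjusted p = 0.0301). It kept this call without control 1, control 3, control 5 or cKO 2, and lost it in the 8 fits that left out another library (edgeR, adjusted p = 0.0529 to 0.0741) and over the 8 low-Xist libraries (adjusted p = 0.0978). The acetyltransferase gene Ep300 and the PBX-binding factor gene Pbxip1 followed in rank at 0.25 and 0.28 (edgeR, adjusted p = 0.183 and 0.214). Pbxip1 passed the test without control 1 (0.44, edgeR, adjusted p = 0.00486) and over the 8 low-Xist libraries (0.46, adjusted p = 0.0178).

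Among 12 genes described elsewhere as targets of TALE proteins, 11 were tested, 2 were lower and 1 was higher (edgeR), against 4.85% lower and 3.28% higher of all genes tested. By DESeq2, 3 were lower and 2 higher; when 1 library was left out, 1 to 3 were lower and 1 to 2 higher (2 without control 3), and over the 8 low-Xist libraries 1 was lower and 1 higher. The median log2 fold change was -0.04. Ccnd1, the gene of the G1 cyclin D1, rose from 41.9 ± 5.31 to 85.4 ± 14.8 CPM, with all 6 cKO libraries above every control library (log2 fold change 1.02, SE 0.12, edgeR, adjusted p = 0.000177). Cyp17a1, the steroidogenic enzyme gene of fetal Leydig cells, fell by 1.15 on the log2 scale (886.2 ± 206.0 to 399.2 ± 155.1 CPM, edgeR, adjusted p = 0.0110). Trib2, which encodes a pseudokinase tied to Meis1 in leukaemia, fell by 0.40 (220.6 ± 19.1 to 167.4 ± 30.1 CPM, edgeR, adjusted p = 0.0363). Its call held without control 1, control 5, cKO 1 or cKO 2, but not in the 8 fits that left out another library (edgeR, adjusted p = 0.064 to 0.0835) or over the 8 low-Xist libraries (-0.25, adjusted p = 0.135).

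The genes whose level followed that of Pknox2 most closely over the 12 libraries were found by Pearson's r of log2 CPM among the 14261 tested genes that averaged 1 CPM or more. They were Mmp2 (r = 0.994), Glipr2 (0.993), Islr (0.990), Col13a1 (0.990) and Rasl11b (0.989). Mmp2 encodes a gelatinase of the extracellular matrix and Col13a1 a transmembrane collagen. Their log2 fold changes were -0.50, -0.58, -0.51, -1.02 and -0.56, all past the threshold (edgeR, adjusted p = 0.00229, 0.00709, 0.00192, 0.00172 and 0.00264). For Meis3 the genes of this kind given here were Tnxb (r = 0.976), Plxdc2 (0.959), Zfhx4 (0.959) and Gask1a (0.952). Tnxb, the gene of the matrix protein tenascin X, rose by 1.5 on the log2 scale (edgeR, adjusted p = 0.00232). The 12 libraries include both groups, so these coefficients hold the group difference, and they are a description across 12 points.

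Between the members, Pknox2 and Meis3 ran against each other over the 12 libraries (r = -0.807), but after the group means were removed little of this was left (r = -0.271). Within groups, the largest coefficient of any pair of members was that of Pknox1 and Meis1, which ran against each other (r = -0.755). Meis1 and Meis2 varied together within groups (r = 0.715), as did Pknox2 and Meis2 (r = 0.702), whereas, among others, Pknox2 and Pbx3 (r = -0.654) and Pknox1 and Meis2 (r = -0.613) went in opposite directions. Pbx3 and Tgif1 varied in opposite directions both over all libraries (r = -0.652) and within groups (r = -0.704). These values also share the libraries with high Xist, among them cKO 5 and cKO 6 with the highest Pbx3.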

How the data were processed

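Bulk RNA-seq of 12 pools of fetal testes was analysed from 1 table of counts per gene that the authors deposited. According to the methods of the study, libraries were stranded, read pairs were trimmed with Trim Galore 0.6.7 and mapped to mm10 with STAR 2.5, and fragments were counted by strand over curated RefSeq genes with featureCounts of Subread 1.5.0-p1. Groups were taken from the sample titles, and 0 sample columns were left unused. Here, counts were tested with edgeR 4.0.16 (quasi-likelihood test, TMM scaling, R 4.3.3) after its filter on low counts (minimum count 10, minimum total 15), with Benjamini-Hochberg adjustment over the 15572 genes tested and a threshold of 0.05. DESeq2 1.42.0, limma-voom (limma 3.58.1), other scalings and filters, a replicate block, Xist as a covariate, a fit without the 4 high-Xist libraries and fits without each library were tried as alternatives. The fit was also tried on counts simulated from the means and dispersions of these data. There edgeR recovered 51 of 98 genes changed by 0.5 on the log2 scale and 85 of 102 changed by 1. Of its 147 calls, 11 were false. Gene positions came from the deposited table of counts. Exon lengths and homeobox sequences came from GENCODE M21, and homeoboxes were located by the helix codons and the loop codons. CPM values are counts scaled by the TMM library size. Each standard error is the size of edgeR's log2 fold change over the root of its F value. Of the members, Pbx4 had the fewest counts, 4 to 69 per library.

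The members and lists were chosen with earlier results of these data known. Named genes were the 9 members, the other TALE genes, the 3 of each partner, cofactor or target list with the smallest p-values, and for each member that passed the test the 5 genes with the highest Pearson correlation to it over the 12 libraries. Some genes that fall under these rules are not reported here. The comparison per Pdgfra count was added after the data had been seen.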

Additional observations from a re-analysis of the deposited data

Results flagged for a closer look

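In 3 of 30 groups of 6 libraries checked, 1 library lay far from the other 5, with a gap to its nearest neighbour that exceeded Dixon's critical value for groups of 6. Chance alone gives such a gap in about 1 group in 20. Among the 9 members this concerned Pbx2, whose lowest cKO library, cKO 3, was at 117.4 CPM while the next was at 130.4 CPM. Irx3 and Irx5 were highest in control 1, at 31.87 and 3.463 CPM, where the next control libraries were at 1.177 and 0.528 CPM. Control 1 was also the only control library with Xist over 100 CPM.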

How the results depend on the processing

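Pknox2 and Meis3 passed the threshold under every alternative fit over all genes and in all 12 fits without 1 library, with log2 fold changes of -0.616 to -0.491 and 0.47 to 0.605 in the latter. Over all genes, 1266 were called, 1909 by DESeq2, 931 with the replicate number as a block, and 816 (without cKO 4) to 3106 (without control 1) when 1 library was left out. Without the 4 high-Xist libraries 1103 were called, of which 48.0% were lower against 59.7% over the 12 libraries; 2 members, Pknox2 and Pbx3 (-0.373), were then lower, Tgif2 was at 0.084 and Irx5 at -0.65, and the paralog differences were -0.451 for Meis2 to Meis3 (exact test, adjusted p = 0.05), 0.449 for Pbx2 to Pbx3 and -0.028 for Pbx3 to Pbx4. Pbx3 also changed sign to -0.037 in limma-voom, -0.031 with the block and -0.165 with Xist as a covariate. Same-numbered libraries did not deviate together (correlations of -0.334 to 0.242), so the numbers do not pair the samples; with the replicate block the paralog differences of -0.435 (Pknox2 to Pknox1), -0.282 (Meis1 to Meis2) and -0.689 (Meis1 to Meis3) lost their calls (exact sign-flip test, adjusted p = 0.109, 0.146 and 0.109), where the smallest unadjusted p is 0.0312. Without single libraries, Pbx3 ranged from -0.115 to 0.141, Pbx4 from -0.154 to 0.05, Tgif2 from -0.062 to 0.014, and the paralog differences from -0.339 to -0.239 (Meis1 to Meis2), -0.546, without control 1, to -0.301 (Meis2 to Meis3), -0.021 to 0.215 (Pbx2 to Pbx3) and -0.09 to 0.14 (Pbx3 to Pbx4). With the block, the median over the members was -0.031, and Hoxd8, Hoxd10 and Ctbp2 also lost their calls (-0.431, -0.48 and 0.251, edgeR, adjusted p = 0.0559, 0.0519 and 0.0665). Division by Pdgfra raised all 9 members by about as much as Pdgfra itself was lower, which took Pknox1, Meis1 and Pbx4 to 0.307, 0.261 and 0.386 by construction. The cause of the other changes was not tested.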
